A study of Mus musculus with 10 samples.

Results

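The genes examined were 10 members and close partners of the Fos and Jun family: Fos, Fosb, Fosl1, Fosl2, Jun, Junb, Jund, Atf3, Batf3 and Maff. Accessible sites were taken from the list that the authors made over all their ATAC-seq samples, in which fragments cut out by the transposase Tn5 mark open chromatin. A site belonged to a gene when it overlapped the gene body or the 100 kb on either side of it in the mouse genome build mm10. In all, 271 of the 153924 listed sites lay in these windows. Summed gene by gene there were 285, since 14 sites lay in both the Atf3 and the Batf3 window, which overlap on chromosome 1.

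The sites came from immortalized mouse embryo fibroblasts (iMEF), a cultured fibroblast line, in 10 libraries of 5 groups with 2 replicates each. These were untreated cells (EtOH as the vehicle) and cells exposed to dTAG for 30 min, 4 h, 8 h or 24 h. All groups, the untreated included, carried endogenous Ash2l alleles that lacked a floxed exon and survived on a lentivirally expressed, N-terminally FKBP12F36V-tagged human ASH2L, which dTAG targets for degradation, and they came from a single clone. The list gives the start and end of each site and holds no value per library, so it shows where chromatin was accessible in at least some of the samples but not in which group, and no difference between dTAG and control could be computed. The depth of the libraries is unknown, every value below is a description without a test, and intervals are 95% Wilson intervals that cover the sampling of sites only.

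Fos and Jun proteins carry a basic DNA-binding region next to a leucine zipper and bind DNA as dimers known as AP-1. Jun proteins can pair with themselves or with Fos proteins, whereas Fos proteins need a partner, and the preferred sequence is TGACTCA. In fibroblasts Fos, Fosb, Jun, Junb and Atf3 are classical immediate early genes that serum and stress switch on within minutes, and AP-1 is known as a frequent occupant of fibroblast enhancers. The labelled cell type was checked at promoters: 12 of 12 fibroblast marker genes had an accessible promoter, against 12 of 21 markers of epithelial, endothelial, blood, pluripotent, muscle and neural cells. Over all protein-coding genes the share was 70.8%, so an accessible promoter alone says little about cell type. Listed promoter sites were absent at Krt5, Krt14, Krt18, Ptprc, Spi1, Adgre1, Nanog, Myod1 and Myog, and present at others such as Epcam, Kdr, Sox2, Neurod1, Tubb3 and Sox10.

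Of the 271 sites, 15 were at the promoters of the 10 genes themselves, 87 were at start sites of other genes, and 169 were distal, that is without any annotated start site within 1 kb. A site counted as a promoter site when it overlapped 1 kb on either side of an annotated transcript start. Several promoters of the family contain sequence elements that are well known from work on serum induction, and they are shown here with their positions because the accessible sites covered them. The Fos promoter, the 250 bases before the start at chr12:85473640-85473889 on the plus strand, holds TGACG, the core of a cAMP response element (CRE), at 129 and 66 bases before the start and the TATA box at 33 (capitals). The Jun promoter, chr4:95052223-95052472 on the minus strand, holds a CCAAT box at 65 and variants of the AP-1 sequence at 164 and 45 bases before the start (TTACCTCA and TGACATCA, in capitals), which are classical binding places of Jun with its partner ATF2. Both variants were looked for after the sequence had been seen.

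Fos promoter: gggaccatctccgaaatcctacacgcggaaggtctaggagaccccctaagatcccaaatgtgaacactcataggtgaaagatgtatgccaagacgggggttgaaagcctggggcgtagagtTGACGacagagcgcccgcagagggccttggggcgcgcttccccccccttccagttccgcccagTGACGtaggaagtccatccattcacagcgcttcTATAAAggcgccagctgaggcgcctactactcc
Jun promoter: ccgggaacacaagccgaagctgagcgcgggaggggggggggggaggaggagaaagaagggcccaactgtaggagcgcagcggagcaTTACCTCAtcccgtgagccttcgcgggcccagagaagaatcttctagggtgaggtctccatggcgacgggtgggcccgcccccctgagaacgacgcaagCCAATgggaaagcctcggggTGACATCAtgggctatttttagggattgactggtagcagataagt

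The CArG box is the sequence bound by the serum response factor SRF, which recruits ternary complex factors at immediate early genes. It was present in 4 of the 15 promoter sites of the family, while 4.82% of all 26427 promoter sites in the list held one. Those were the Fos site, the upstream Fosb site and the outer pair of the Junb sites. In the 250 bases before the start, 0 of the 10 genes held a CArG box (1.31% of coding genes). In the 500 bases before it, 2 did, Fos and Fosb (2.58%). The boxes (in capitals, all on the plus strand of mm10) lay 309 bases before the Fos start at chr12:85473556-85473615, 266 bases before the Fosb start at chr7:19310283-19310342, 1450 bases before the Junb start at chr8:84980134-84980193 and 2085 bases after it at chr8:84976599-84976658.

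Fos CArG box: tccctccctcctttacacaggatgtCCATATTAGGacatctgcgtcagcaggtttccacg
Fosb CArG box: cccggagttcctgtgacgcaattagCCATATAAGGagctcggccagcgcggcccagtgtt
Junb upstream CArG box: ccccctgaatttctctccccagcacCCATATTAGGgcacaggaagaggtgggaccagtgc
Junb downstream CArG box: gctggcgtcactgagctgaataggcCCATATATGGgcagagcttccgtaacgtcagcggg

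An accessible site was listed at the promoter of 9 of the 10 genes, all but Jund. The share over all 21938 protein-coding genes was 70.8%. All 10 genes had a CpG island within 1 kb of a start, against 71.6% of coding genes, and of coding genes with such an island 90.3% had a promoter site, so the family's count lay close to that of island genes. More than 1 promoter site was found at 4 genes, Junb with 4 and Fosb, Fosl2 and Atf3 with 2 each, against 21.7% of coding genes.

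The Fos promoter site covered 1743 bp at chr12:85473144-85474886, from 746 bp upstream to 996 bp downstream of the start, and so included the CArG box, both CRE cores and the TATA box. At Fosb, the relative of Fos that is best known from nervous tissue, a site of 1244 bp spanned the start and a site of 1483 bp followed in the gene body, at chr7:19309377-19310620 and chr7:19307615-19309097. The Fosl1 site (Fra-1, chr19:5447444-5449067) measured 1624 bp and reached 1520 bp into the gene. It held TGACTCA 350 bp after the start, in the untranslated part of the transcript, and again 1308 bp after it. At Fosl2 (Fra-2) a site of 1546 bp lay over the start at chr5:32135100-32136645, with TGACTCA 53 bp downstream, and a short site of 240 bp lay 10.6 kb further in, at an internal start, again with a TGACTCA. All of the 4 Fos-type genes therefore had an open start, and the AP-1 consensus was found in the sites of Fosl1 and Fosl2 and not in those of Fos and Fosb. Over the whole family 5 of the 15 promoter sites held the consensus (33.3%, 15.2 to 58.3), an interval that included the 21.8% of all promoter sites. These counts over whole promoter sites, like those of the CArG box, were chosen after the values were seen.

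Jun had the widest promoter site of the family, 2953 bp at chr4:95050698-95053650. It lay far from the others: 99.0% of coding genes with a promoter site had a narrower one. At least 1 start of Junos, the transcript on the opposite strand, lies in the site or within 1 kb of it. Junb, which often acts as a weaker partner or antagonist of Jun, had 4 separate sites in place of a single wide one. They measured 936, 772, 603 and 1092 bp and lay between chr8:84975941 and chr8:84980507. The widest was at the 24.0th percentile, which is that of a single site and not of the stretch they span. The site over the Junb start, 772 bp, held the CCAAT box at 66 and the TATA box at 30 bases before the start.

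Atf3, a stress-induced repressor that pairs with Jun, has 3 annotated starts, of which 2 were covered by a site of 1808 bp (chr1:191182394-191184201). A second site of 1459 bp (chr1:191215729-191217187) lay within 1 kb of the outer, upstream start and did not cover it. This second site was the less CpG-rich, with 48.4% GC and an observed to expected CpG ratio of 0.30, and it held 2 of the 3 TGACTCA matches found at Atf3 promoters. Batf3, a partner of Jun proteins known for its role in dendritic cells, had a site of 1671 bp in these fibroblasts (chr1:191097235-191098905). The site of Maff, a small Maf protein without an activation domain, measured 1764 bp (chr15:79346928-79348691) and held the full CRE, TGACGTCA, at 29 bases before the start. The median of the widest sites over the 9 genes was 1671 bp, against 1412 bp for coding genes (quartiles 1107 and 1753) and 1450 bp for those with an island. The family was thus slightly above the middle of all promoters in width, and 7 of its 9 widest sites lay between 1483 and 1808 bp. At Fosb and Junb the widest site lay downstream of the start from which distances ran. The sites over those starts measured 1244 bp and 772 bp.

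**Figure D1:**
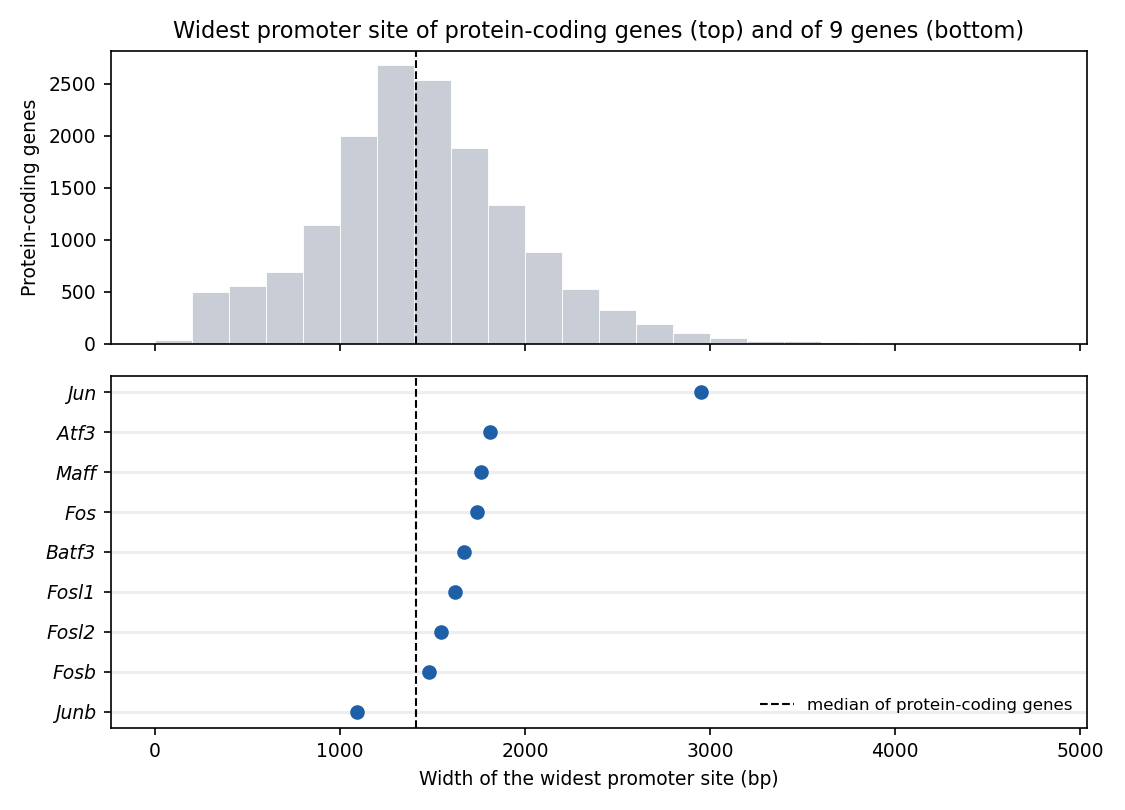
Width in bp of the widest promoter site, as a histogram over protein-coding genes that have one (top) and as 1 point for each of the 9 genes (bottom), with the median of coding genes, 1412 bp, as a dashed line and any higher values in the last bin. Jun, at 2953 bp, lies far to the right, Junb, at 1092 bp, lies below the median, and the other 7 genes lie between 1483 and 1808 bp. For Fosb and Junb the widest site is not the one over the start from which distances ran.

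Within the 250 bases before the start, TGACTCA itself was found in 0 of the 10 genes and in 3.86% of coding genes. The CRE core TGACG was found in 6 of 10 genes (19.9% of coding genes), the Sp1-type sequence GGGCGG in 9 (41.1%), the EGR sequences GCGTGGGCG or GCGGGGGCG in Fosb, Jund and Maff (4.08%) and TATAAA in Fos and Junb (8.18%). A full CRE was found in Jund and Maff (2.02%). These windows depend on which transcript start is taken. In the RefSeq promoter table, which lists 9 of the genes, a full CRE was found in 0, and TGACTCA again in 0. There TGACG was found in 4 of the 9 (20.7% of coding genes) and GGGCGG in 6 (44.3%). The EGR sequences were found in Fosb and Fosl2 (4.22%) and TATAAA in Fos only (8.06%).

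Jund was the exception among the promoters. JunD is the Jun protein with the steadiest expression in many cells, and its promoter has a CpG island, yet no listed site overlapped it. The list analysed here held no site at all between chr8:70674034 and chr8:70849210, a stretch of 175.2 kb. The nearest site ended 24.9 kb upstream of the Jund start and the next began 150.3 kb downstream. The stretch contains the starts of 10 coding genes, Jund, Iqcn, Gm3336, Pde4c, Rab3a, Mpv17l2, Pik3r2, Mast3, Il12rb1 and Arrdc2, of which 9 have an island. Among 153661 spaces between neighbouring sites on a chromosome, 6, this one included, held at least as many island-bearing starts. The reference has 0 unsequenced bases there, and 21.2% of it is repeat-masked, against 32.3% of chromosome 8. Whether the stretch was closed in these cells or was lost in making the list was not tested, so the distal density and the AP-1 share are also given without Jund. The motif and island counts come from the reference sequence and include it.

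Around the promoters, most of the genes lay in regions dense in distal sites. The median over the 10 genes was 8.77 distal sites per 100 kb (9.34 without Jund), against 5.78 for coding genes (quartiles 3.36 and 8.02). Among the fibroblast markers the median was 9.64, with 10 of 12 genes above the coding median. Among the markers of other cell types it was 7.41, with 15 of 21 above. A density above the coding median was thus not particular to the family, in which 8 of 10 genes lay above it. Atf3 led with 29 distal sites or 11.7 per 100 kb, at the 95.6th percentile of coding genes, followed by Fosl2 with 25 (11.3) and Jun with 22 (10.8). Maff had 21 (9.88), Fos 19 (9.34), Fosb 17 (8.20), Batf3 17 (8.05) and Fosl1 14 (6.72). Junb with 9 (4.41) and Jund with 8 (3.97) were below the coding median. The Maff position rests on its chromosome: it was at the 88.8th percentile of all coding genes and at the 40.4th of those on chromosome 15, where the median was 10.5 per 100 kb.

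**Figure D2:**
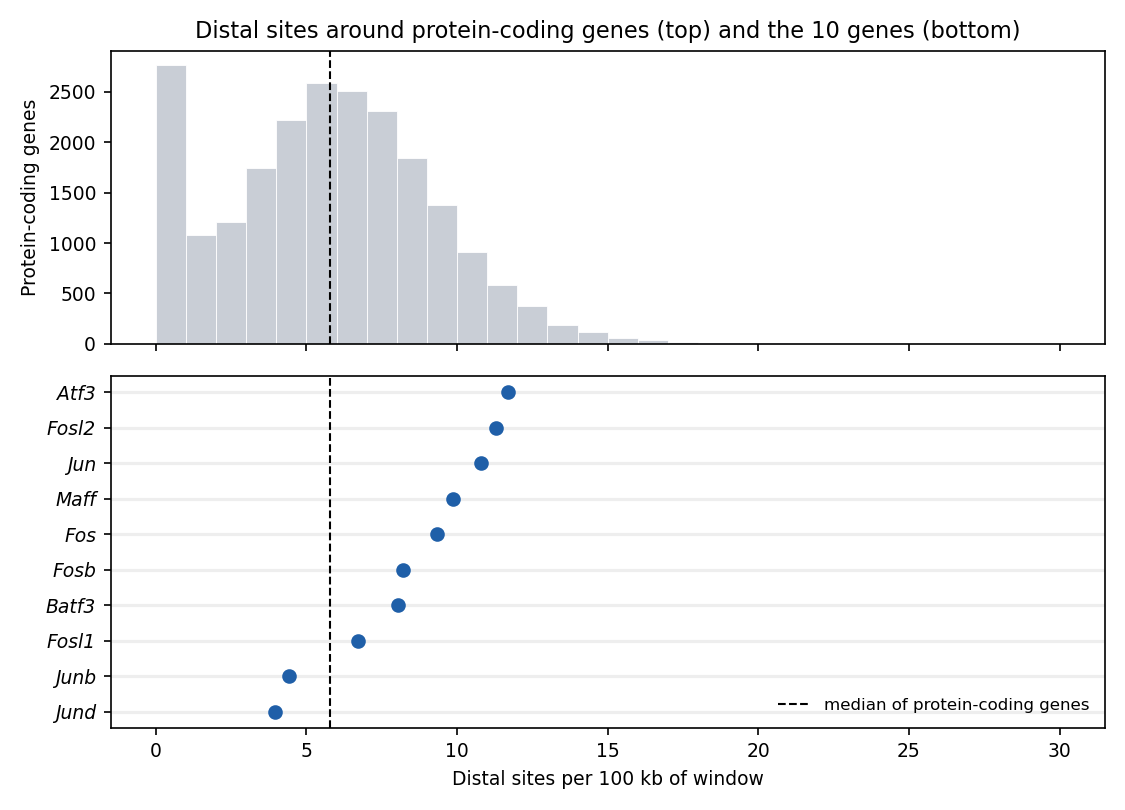
Distal sites per 100 kb of window, as a histogram over the 21938 protein-coding genes (top) and as 1 point for each of the 10 genes (bottom), with the coding median of 5.78 as a dashed line and any higher values in the last bin. Atf3, Fosl2 and Jun have the highest values, and Junb and Jund lie to the left of the line.

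The windows differed in how crowded with genes they were. The Fos, Fosl2 and Jun windows held 2 coding starts each, whereas Fosb had 11, Jund 13, Fosl1 16 and Junb 17. Correspondingly 22 of the 35 sites in the Junb window and 16 of the 35 in the Fosb window were at start sites of other genes, against 3 of 23 around Fos and 2 of 29 around Fosl2. Of the 169 distal sites, 82 lay in introns, 11 in exons and 76 between genes, and for 59 the nearest coding start was that of a family member, while for 110 it was another gene. A distal site in a window is therefore often closer to another gene, and no target gene can be read from position.

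**Figure D3:**
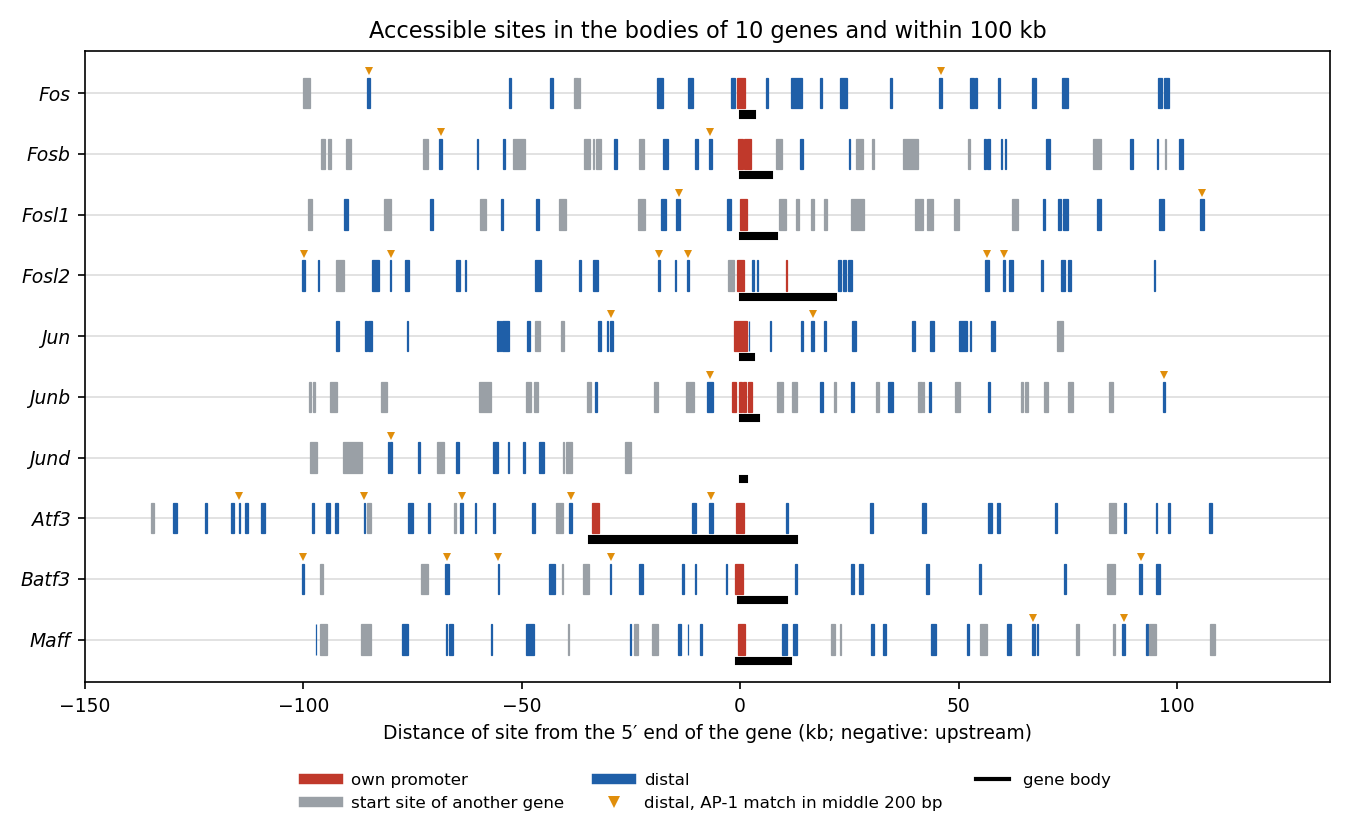
Position of each listed site, drawn to scale, relative to the 5′ end of each of the 10 genes in kb, with upstream to the left whatever the strand. Sites at the own promoter are red, at start sites of other genes grey and distal ones blue, with a triangle for an AP-1 match in the middle 200 bp and a black bar for the gene body; Jund has no site to the right of its start, and the Junb and Fosl1 rows are rich in grey.

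Single distal sites stood out by width. Fos had distal sites centred 1.6, 11.4, 18.3, 43.1, 52.7 and 85.1 kb upstream of its start and 13 downstream, from 6.2 to 97.6 kb. The widest of these, 2462 bp at chr12:85485536-85487997 and 12.9 kb downstream in intergenic sequence, is exceeded or equalled by 0.0762% of the 127255 distal sites in the list, and it held 0 matches to TGACTCA. The widest distal site of Maff, 1938 bp at chr15:79298464-79300401, lay 48.1 kb upstream in an intron of Pla2g6 (0.584% as wide), and that of Jun, 1795 bp at chr4:95000234-95002028, lay 51.1 kb downstream (0.996%). The median width of the distal sites in the windows was 675 bp, against 565 bp for all distal sites.

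The AP-1 consensus was about as frequent in distal sites around the family as in the whole list. TGACTCA, on either strand, was present in the middle 200 bp of 28 of the 169 distal sites (16.6%, 11.7 to 22.9), and in 16.3% of all distal sites. Without Jund the share was 16.8%. By gene the share ran from 9.09% at Jun (2 of 22) to 29.4% at Batf3 (5 of 17), with 24.0% at Fosl2 (6 of 25) and 10.5% at Fos (2 of 19), and the interval of every gene included the overall 16.3%. Sites upstream of the genes held a match in 19 of 91 cases (20.9%, 13.8 to 30.3) and those downstream in 9 of 78 (11.5%, 6.19 to 20.5), with overlapping intervals, and sites in gene bodies in 1 of 7. These classes add up to more than 169, since sites between Batf3 and Atf3 can lie on different sides of each gene. Per kb of sequence the consensus occurred 0.665 times in distal sites of the windows and 0.176 times in the rest of the windows, a ratio of 3.78, and the same ratio over the whole list was 3.93.

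**Figure D4:**
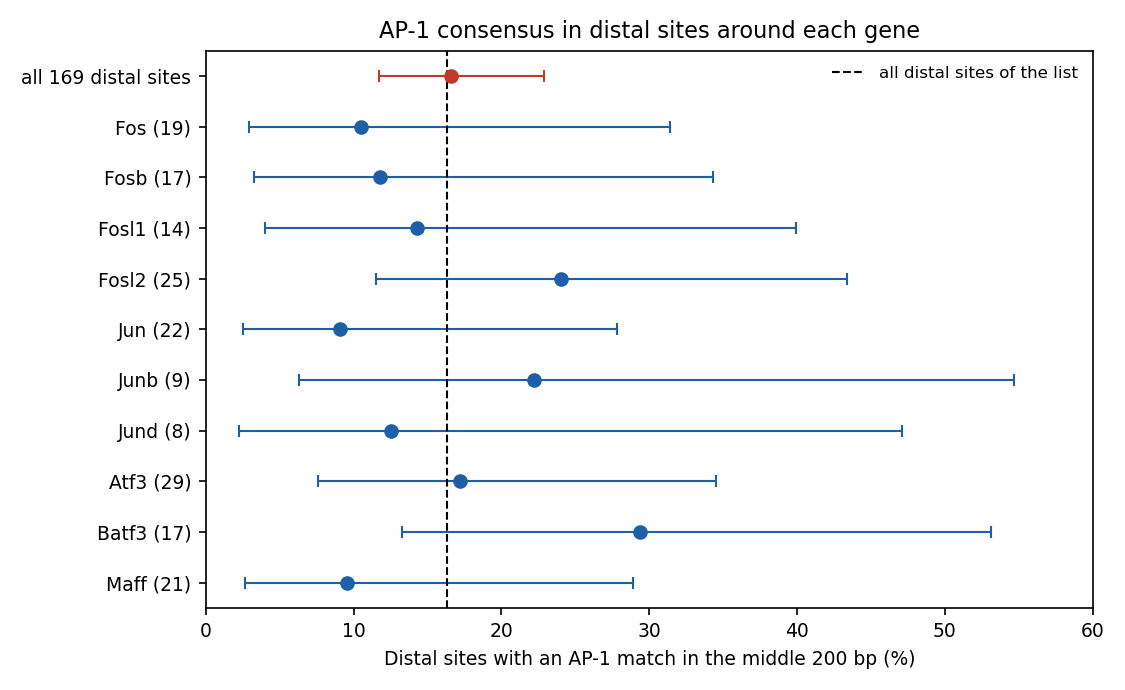
Percent of distal sites with TGACTCA in the middle 200 bp, for all 169 distal sites (red) and for each gene (blue, number of distal sites in parentheses), with 95% Wilson intervals as bars and the share over all distal sites, 16.3%, as a dashed line. All intervals cross the line, and Batf3, Fosl2, Junb and Atf3 lie to its right.

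Clustered matches were seen at several genes, a measure chosen after the values were seen. At least 2 matches in the middle 200 bp were found in 7 of 169 distal sites (4.14%, 2.02 to 8.30), against 1.19% of all distal sites. Of these sites 3 were in the Fosl2 window and 1 each in the Fos, Fosl1, Junb and Batf3 windows. The starts of the paired matches were 22 bp apart at Fosl1, 25 at the site 11.9 kb upstream of Fosl2, 30 at Junb, 52 at Fos and 64 at Batf3. In the other Fosl2 sites they were 30 bp apart, 80.0 kb upstream, and 183 bp apart, 99.9 kb upstream. The Junb site, 1367 bp at chr8:84984957-84986323 and 6.9 kb upstream, held 4 matches over its whole length, a number reached by 0.125% of all distal sites. Over whole sites, 3 or more matches were found in 2 of the 169 (1.18%, 0.325 to 4.21). That interval included the 0.817% of all distal sites. For the Fos site and the Fosl2 site 11.9 kb upstream, the nearest coding start was that of the same gene. It was that of AI837181 for the Fosl1 site and of Hook2 for the Junb site. The other Fosl2 sites were nearest to Babam2 and the Batf3 site to Flvcr1. Sequences around the match closest to the middle of a site are shown with every TGACTCA in capitals. They lie in the windows of Fosl1 (13.9 kb upstream, chr19:5433536-5433596, plus strand) and Fosl2 (11.9 kb upstream, chr5:32123760-32123820, minus strand). The others lie in the windows of Junb (chr8:84985630-84985690, minus strand) and Fos (45.9 kb downstream, chr12:85519750-85519810, minus strand).

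Fosl1 upstream site: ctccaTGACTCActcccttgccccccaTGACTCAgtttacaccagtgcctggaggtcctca
Fosl2 upstream site: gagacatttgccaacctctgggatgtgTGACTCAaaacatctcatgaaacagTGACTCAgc
Junb upstream site: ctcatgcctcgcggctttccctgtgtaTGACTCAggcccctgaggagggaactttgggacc
Fos downstream site: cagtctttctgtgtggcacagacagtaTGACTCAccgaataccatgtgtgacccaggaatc

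In the Fosl1 and Fosl2 sequences both members of the pair fall within the stretch shown. The nearest distal site with a match in its middle 200 bp was 6.7 kb from the start at Atf3, in its intron. It was 6.8 kb upstream at Fosb and 16.6 kb downstream at Jun, but 67.1 kb downstream at Maff and 80.0 kb upstream at Jund. Over whole sites, a match lay closer at Maff (13.9 kb upstream) and at Jund (56.0 kb upstream). The same held at Batf3 (25.8 kb downstream, against 29.7 kb upstream for the middle 200 bp). Such matches are letters in an accessible site, and binding was not measured.

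Most other sequence elements searched in the distal sites occurred at shares near those of the whole list, and the CTCF consensus was rarer. The TEAD sequence GGAATG was found in the middle of 12.4% of the 169 sites (17.5% of all distal sites), the RUNX sequence TGTGGT in 18.9% (20.9%), the ETS sequence CGGAAG in 3.55% (2.77%), the E-box CACGTG in 3.55% (2.53%) and the CArG box in 2.37% (1.52%), each with an interval that included the overall share. The consensus of CTCF, the factor that bounds chromatin loops, was found in 0 of the 169, which allows up to 2.22% by the Wilson interval, against 3.05% of all distal sites. A full CRE was found in 0 as well (0.217%).

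Genes that work with the family mostly had a promoter site, at shares to be read against 70.8% of coding genes and 90.3% of those with an island. Of 23 further basic leucine zipper genes, such as the small Maf and ATF/CREB genes, 23 had a promoter site. So did 18 of 18 genes that lead to Fos and Jun, namely kinases, ternary complex factors, Srf, Mkl1 and Mkl2. Of 16 known AP-1 target genes, 16 had one. Among 26 other early genes 25 had one, the exception being Egr2. An island was present in 22 of the bZIP genes, 17 of the kinases and factors, 9 of the targets and 26 of the early genes. The median distal density was 8.53 per 100 kb for the bZIP relatives and 7.27 for the upstream kinases and factors. It was 8.77 for the early genes and 9.84 for the AP-1 targets, beside 8.77 for the Fos and Jun family. The share of distal sites with TGACTCA in the middle was 14.3%, 16.9%, 14.8% and 17.9% in these lists, around the 16.3% of all distal sites. In the Egr and Nab genes, 6 in number with 116 sites, 5 promoters were open and the density was 6.64, and in the Myc network all 13 were open, with 292 sites and 7.32 per 100 kb. Egr2, with 0 promoter sites and 0.0 distal sites per 100 kb, counts in the Egr and Nab list and among the early genes. No median was recomputed without it. With all genes kept, the Fos and Jun family exceeded the Egr and Nab genes and the Myc network in median distal density. The family equalled the other early genes. Its median promoter width of 1671 bp was below those of the bZIP relatives (2039 bp), the early genes (1948 bp) and the Egr and Nab genes (2506 bp). That width was above those of the Myc network (1539 bp), the upstream kinases and factors (1514 bp) and the AP-1 targets (1220.5 bp).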

How the data were processed

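ATAC-seq was performed on 10 libraries. According to their methods, the authors trimmed reads (Trim Galore), aligned them to mm10 (BWA), merged replicates (Picard) and called narrow peaks (MACS); versions, thresholds and any Tn5 shift are not given in the sources used here, and each can change the number, edges and width of sites. The list as deposited by the authors holds other values than counts, namely positions (start and end) pooled over all samples, with no p-value or signal, so neither depth nor replicate error can be given.

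Positions were converted to count from 1. Start sites and gene bodies came from GENCODE M21, sequence from the mm10 (GRCm38) reference of RefSeq, and distances ran from the start of the transcript with suffix 201. Distal sites overlapped no window of 1 kb around any of 132629 start sites. CpG islands were runs of 200 bp in which GC exceeded 0.5 and CpG occurred at over 0.6 of its expected number, soft-masked bases excluded. Shares have 95% Wilson intervals. Percentiles are over protein-coding genes. Python 3.11.15, NumPy 2.4.6 and pandas 2.3.3 were used, and counting and motif search were tested on simulated data. All 10 genes are named. For each gene, the promoter sites and the widest, the most AP-1-rich and the nearest AP-1-bearing distal sites were eligible to be described. The genes, lists and measures were chosen with earlier results of these data known. The alternatives were other flanks, promoter windows, start sites, site widths and motif windows, and leaving out each gene.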

Additional observations from a re-analysis of the deposited data

How the results depend on the processing

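With flanks of 50 or 200 kb the windows held 162 or 504 sites, and 170 once sites narrower than the list's median were dropped. The median distal density stayed above that of coding genes in all of these settings: it was 9.69 per 100 kb with flanks of 50 kb (coding genes 5.59), 4.52 with the wider sites (2.46), 6.19 when distal meant beyond 3 kb (4.40) and 10.0 when only coding starts were considered (6.11). Leaving out each gene in turn gave 8.20 to 9.34. The AP-1 share of distal sites was 34.9% over whole sites (all distal sites 31.0%) and 26.6% in the middle 400 bp (25.8%), but 14.7% and 13.5% with flanks of 50 and 200 kb, below the 16.3% of all distal sites, and 14.6% to 17.7% when each gene was left out. A promoter site was found at 9 genes and an island at 10 in every alternative run. With 500 bases upstream, 2 genes held a CArG box in place of 0. With the RefSeq promoter table, an alternative added after seeing the data, a full CRE was found in 0 of the 9 listed genes in place of 2 of 10. No paired analysis was possible because values for single libraries are not part of the data used. The absence of a site cannot be told apart from a lack of depth, since the depth behind the list is unknown.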
